A study of Mus musculus with 8 samples.

Results

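Isg15, the enzymes Uba7 and Ube2l6 that attach it to other proteins, and Usp18, the protease that takes it off again, were followed in mouse embryonic fibroblasts given B-DNA. The members were chosen by name: every probe set annotated to 1 of these 4 genes, which gave 6 of 22626 probe sets and 4 of 12394 genes. The fibroblasts, mesenchymal cells grown out of embryos of a C57BL/6 x 129Ola cross, had 4 genotypes: wild type (WT, Tbk1+/+ Ikbke+/+), Tbk1-/- Ikbke+/+, Tbk1+/+ Ikbke-/-, and Tbk1-/- Ikbke-/-. Tbk1 and Ikbke encode related kinases that phosphorylate interferon regulatory factors. Each genotype had a mock array and an array of cells 4 h into transfection with B-DNA, right-handed double-stranded DNA of alternating A and T (poly(dA-dT)-poly(dT-dA)). Total RNA of each of the 8 combinations was measured on 1 Affymetrix array, so a ratio of 2 arrays has no replicate check and gets no p-value. The sources used here do not say whether embryos or cultures were pooled, or how much of each gene was deleted.

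Isg15 is a small protein made of a pair of ubiquitin-like domains, and interferon turns its gene on strongly. It is joined to lysines of other proteins in the way that ubiquitin is: Uba7 activates it (the E1 step), Ube2l6 carries it (the E2 step), and ligases such as Herc6 and Trim25 pass it to the target (the E3 step). Usp18 removes Isg15 from its targets and, apart from that, binds the interferon receptor subunit Ifnar2 together with Stat2 and dampens the signal of type I interferon.

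The Isg15 probe set (1431591_s_at) is also annotated to the pseudogene Gm9706, so its signal is given as that of Isg15/Gm9706 and the share of each cannot be told apart. Uba7 had 3 probe sets, and Ube2l6 and Usp18 had 1 each. Signals below were scaled so that the 2% trimmed mean of every array was 500, and a floor of 122 replaced any smaller value in ratios and tests. A ratio against such a value is written as "at least", and signals under the floor have no order. To be counted, a gene had to differ by at least 2-fold between the arrays of a genotype, with the higher signal at 244 or above.

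The bases just upstream of the start sites are shown for the members with a promoter window, whatever their response to B-DNA. Windows for 3 of the 4 members were found in the RefSeq promoter table (GRCm38.p6), each with 250 bases before the start site. They are the minus strand of chr4:156200819-156200968 for Isg15, the plus strand of chr9:107975417-107975566 for Uba7 and the plus strand of chr2:84798678-84798827 for Ube2l6. The 150 bases that end at the base before the start site read as follows, with capitals for matches on either strand to AANNGAAA, the core bound by interferon regulatory factors, or to GAAANNGAAA, the core of the interferon-stimulated response element.
Isg15: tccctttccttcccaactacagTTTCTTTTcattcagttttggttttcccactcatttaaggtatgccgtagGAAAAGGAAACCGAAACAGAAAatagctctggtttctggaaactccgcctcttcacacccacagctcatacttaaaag
Uba7: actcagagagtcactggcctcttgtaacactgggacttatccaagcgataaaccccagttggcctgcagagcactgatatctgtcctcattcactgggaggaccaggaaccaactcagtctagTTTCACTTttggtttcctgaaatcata
Ube2l6: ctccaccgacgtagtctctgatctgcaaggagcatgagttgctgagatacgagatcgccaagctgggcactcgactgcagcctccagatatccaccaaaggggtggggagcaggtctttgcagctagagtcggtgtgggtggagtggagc

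In the Isg15 window the longer core was matched 3 times, starting 78, 72 and 66 bases before the start site. These matches overlap one another in 1 run of capitals, and each of them contains a match to the shorter core. A further match to the shorter core lay on the opposite strand 128 bases before the start. The Uba7 window had 1 match to the shorter core, on the opposite strand, starting 27 bases before the start site, and none to the longer one. Neither core was found in the 250 bases before the Ube2l6 start. Over all 32851 windows of the table, 2.98% held the longer core in these 250 bases and 21.3% the shorter one, which every match to the longer core includes. A match is a description of the letters and not a measured binding site.

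Isg15/Gm9706, the modifier, was far higher after B-DNA in both Tbk1+/+ genotypes and stayed near the floor in both Tbk1-/- genotypes. Its signal was 304 on the WT mock array and 10034 on the WT B-DNA array, a ratio of 33.0. In Ikbke-/- cells it was 242 and 10789.6, a ratio of 44.5. In Tbk1-/- cells the mock array read 96.3 and the B-DNA array 140.4. In Tbk1-/- Ikbke-/- cells they read 104 and 117, so that 3 of these 4 values lay under the floor. The 2 arrays of Tbk1+/+ cells given B-DNA thus stood far above the other 6, and the WT array given B-DNA was 71.4-fold above the Tbk1-/- one and at least 82.1-fold above the Tbk1-/- Ikbke-/- one. Among the 9627 genes tested, those with any array at the floor or above, the log2 ratio of Isg15/Gm9706 ranked 17th in WT and 18th in Ikbke-/- cells.

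Uba7, the activating enzyme of the pathway, was also higher after B-DNA in both Tbk1+/+ genotypes, with smaller ratios. Its brightest probe set (1426970_a_at) read 105 on the WT mock array, under the floor, and 725 after B-DNA, a ratio of at least 5.93. In Ikbke-/- cells it went from 168 to 786, a ratio of 4.68. It read 42.6 and 29.9 in Tbk1-/- cells, both under the floor. In Tbk1-/- Ikbke-/- cells it read 172 on the mock array, as high as the Ikbke-/- mock array, and 109 after B-DNA, under the floor. The mock signal of Uba7 was therefore not lower in both Tbk1-/- genotypes.

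The other Uba7 probe sets differed in size. Probe set 1426971_at was under the floor on every mock array and read 259 in WT and 303 in Ikbke-/- cells after B-DNA, at least 2.12-fold and 2.48-fold higher. Probe set 1437317_at went from 227 to 345 in WT and from 184 to 302 in Ikbke-/- cells, ratios of 1.52 and 1.64 that did not reach 2-fold. All 3 read higher after B-DNA in both Tbk1+/+ genotypes, and 2 of the 3 were counted. In Tbk1-/- Ikbke-/- cells 1437317_at also read higher after B-DNA, 165 against 62.6, which was under the floor.

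Ube2l6, the conjugating enzyme, was close to undetected on these arrays. Its probe set (1417172_at) gave a mock signal of 32.3 and a B-DNA signal of 118 in WT, and 20.9 and 163 in Ikbke-/- cells. The Tbk1-/- pair read 11.4 and 7.75 and the Tbk1-/- Ikbke-/- pair 10.7 and 3.77. Of these 8 values 7 lay under the floor, and the remaining one, that of Ikbke-/- cells given B-DNA, did not reach 244. Ube2l6 passed the filter on low values only through the Ikbke-/- B-DNA array, where it is highest. With the floor at the 20th percentile of all signals it was counted as higher in WT (log2 ratio 1.63) and Ikbke-/- cells (2.09).

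Usp18, the protease, had the highest ratios of the 4 members. Its signal (1418191_at) was 239.5 on the WT mock array and 8266 on the WT B-DNA array, a ratio of 34.5. In Ikbke-/- cells it was 178 and 12216.5, a ratio of 68.5. All 4 arrays of Tbk1-/- genotypes were under the floor, at 83.5 (mock) and 79.3 (B-DNA) for Tbk1-/- and 74.02 and 97.3 for Tbk1-/- Ikbke-/-. The log2 ratio ranked 14th of 9627 in WT and 7th in Ikbke-/- cells.

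**Figure D1:**
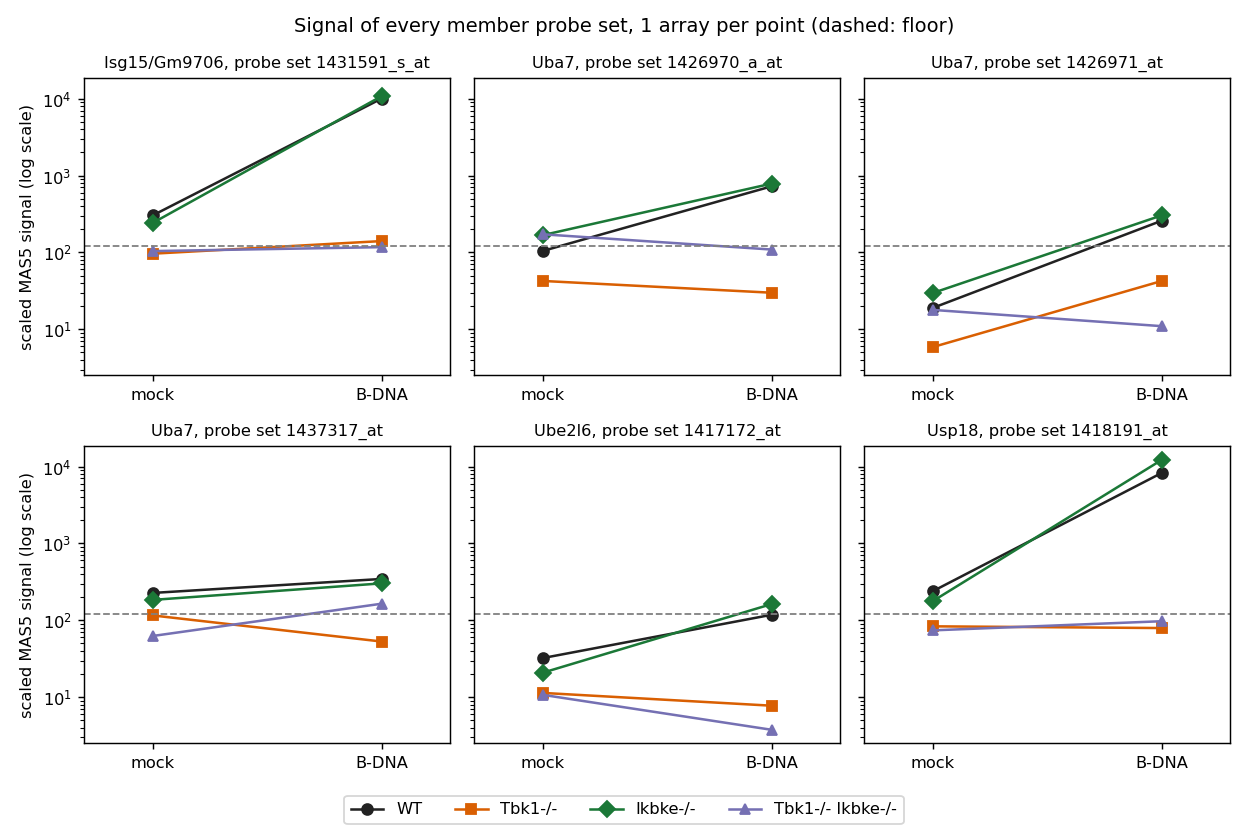
Scaled MAS5 signal (log axis) of the 6 member probe sets on mock and B-DNA arrays, 1 line per genotype, 1 array per point, with the floor of 122 as a dashed line. For Isg15/Gm9706, Usp18 and the brightest Uba7 probe set the WT and Ikbke-/- lines climb and the lines of both Tbk1-/- genotypes stay near or under the floor, and 7 of the 8 Ube2l6 points lie under it.

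Counted over the members, 3 of 4 were higher after B-DNA in WT cells, where 3.28% of all genes were, and 3 of 4 in Ikbke-/- cells, where 3.56% were. In both genotypes these were Isg15/Gm9706, Uba7 and Usp18. No member was counted as lower in them (1.89% and 1.64% of all genes), and none in either direction in Tbk1-/- cells (0.291% of all genes higher, 0.405% lower) or in Tbk1-/- Ikbke-/- cells (0.54% higher, 0.748% lower). The median log2 ratio of the 4 members was 3.81 in WT and 3.85 in Ikbke-/- cells, against a median of 0 over all genes in each.

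**Figure D2:**
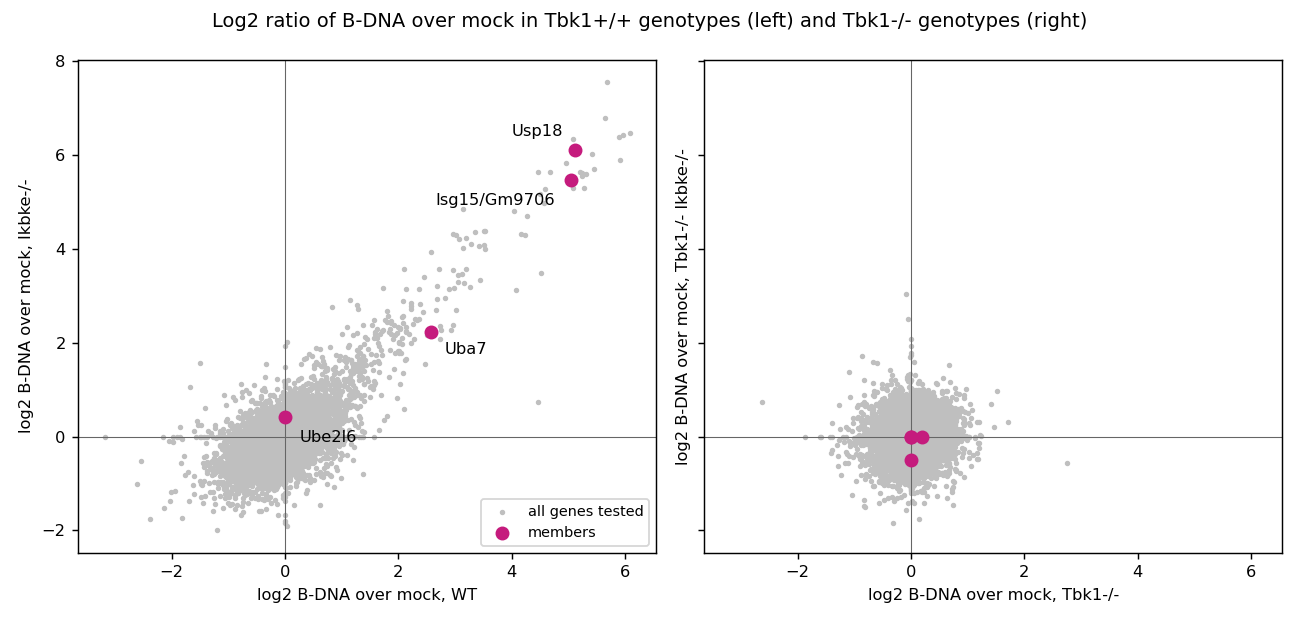
Log2 ratio of B-DNA over mock for 9627 genes (grey) and the 4 members (magenta), in WT against Ikbke-/- cells on the left and in Tbk1-/- against Tbk1-/- Ikbke-/- cells on the right, 1 pair of arrays per axis. Usp18 and Isg15/Gm9706 lie at the upper end of the left panel and Uba7 midway, while on the right all 4 lie within 0.5 of 0 and 2 of them overlap at the origin, where the floor puts them.

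Whether the response depended on Tbk1 was tested with limma across the 4 pairs of arrays, as the mean log2 ratio of the 2 Tbk1-/- pairs less that of the 2 Tbk1+/+ pairs. For Usp18 the mean log2 ratio was 0 in the Tbk1-/- pairs and 5.60 in the Tbk1+/+ pairs, a difference of -5.60 (SE 0.302, limma adjusted p = 5.63e-04). For Isg15/Gm9706 the difference was -5.16 (SE 0.261, limma adjusted p = 5.07e-04), and for Uba7 it was -2.64 (SE 0.231, limma adjusted p = 0.00367). For Ube2l6 the floor fixed 7 of 8 values and with them the difference of -0.21 (SE 0.243, limma adjusted p = 0.73), so its dependence on Tbk1 was not measured. It was -1.86 with the floor at the 20th percentile (limma adjusted p = 0.144) and -2.20 with no floor and a pseudocount of 16 (limma adjusted p = 0.117). Thus 3 of the 4 members had a lower ratio in the Tbk1-/- pairs, where 1.87% of the 9627 genes tested did, and none had a higher one (0.239% of genes). Values under the floor entered all 3 differences, so neither their order nor their full size was measured. Usp18 was under the floor on all 4 Tbk1-/- arrays, so that its 0 there is the floor's, and it passed the filter on low values only through the Tbk1+/+ arrays where it is high. With no such filter none of the 3 passed (limma adjusted p = 0.307 for Usp18, 0.285 for Isg15/Gm9706 and 0.258 for Uba7).

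These calls rest on 1 residual degree of freedom. It is what added Tbk1 and Ikbke effects leave unexplained in the 4 log2 ratios, not a spread between replicates. For Usp18 both Tbk1-/- ratios were 0 by the floor and added nothing to it. In the model without the Ikbke interaction, which leaving out a pair requires, the same 3 members were called with all 4 pairs, and no member was called when any 1 pair was left out. The differences were -6.10 to -5.11 for Usp18, -5.38 to -4.95 for Isg15/Gm9706 and -2.89 to -2.40 for Uba7, with limma adjusted p from 0.217 to 0.46. Fitted probe set by probe set, Uba7 passed by 1426970_a_at (-2.64, limma adjusted p = 0.00344) and not by 1426971_at (-1.20, limma adjusted p = 0.0821) or 1437317_at (-0.44, limma adjusted p = 0.438).

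The ligases of the pathway were measured in part. Trim25, a ligase reported to pass Isg15 to its targets and better known for ubiquitinating the RNA sensor RIG-I, went from 755 to 4989 in WT and from 528 to 6299 in Ikbke-/- cells. The Tbk1-/- arrays gave 416 (mock) and 453 (B-DNA) and the Tbk1-/- Ikbke-/- arrays 175 and 160.4, all above the floor. Its log2 ratio fell by 3.15 in the Tbk1-/- pairs relative to the Tbk1+/+ pairs (SE 0.317, limma adjusted p = 0.00604), and its other 2 probe sets gave log2 ratios of 2.93 to 3.41 in Tbk1+/+ cells. On its mock arrays Trim25 was lower in both Tbk1-/- genotypes than in either Tbk1+/+ one. Arih1, a further ligase linked to Isg15, read between 1116 and 1297 on all 8 arrays by its brightest probe set and had a difference of -0.13 (SE 0.23), which did not pass. Of its other 2 probe sets, one read 1002 and 584 in WT cells, mock and B-DNA, a log2 ratio of -0.78. Herc6, the main Isg15 ligase of mouse cells, was not analysed here.

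Of 6 measured genes whose proteins work with Usp18 at the interferon receptor, 2 had a lower ratio in the Tbk1-/- pairs, where 1.87% of all genes did. Stat2, which carries Usp18 to the receptor and the interferon signal to the nucleus, went from 225 to 2007 in WT and from 238 to 2282 in Ikbke-/- cells, with a difference of -2.85 (SE 0.261, limma adjusted p = 0.00449). Irf9, the DNA-binding partner of Stat2, went from 293 to 797 and from 335 to 1422, with a difference of -1.93 (SE 0.269, limma adjusted p = 0.0225). The receptor subunits Ifnar1 and Ifnar2 and the kinases Jak1 and Tyk2 did not pass, with differences between -0.32 and -0.08. In WT cells Ifnar2 read 758 and 897 and Ifnar1 559 and 761. Over the 4 genotypes the log2 ratios of these 4 genes lay between -0.51 and 0.45 by their brightest probe sets. Fainter probe sets reached 0.88 for Ifnar2 in Ikbke-/- cells and 0.83 for Jak1 in WT cells.

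**Figure D3:**
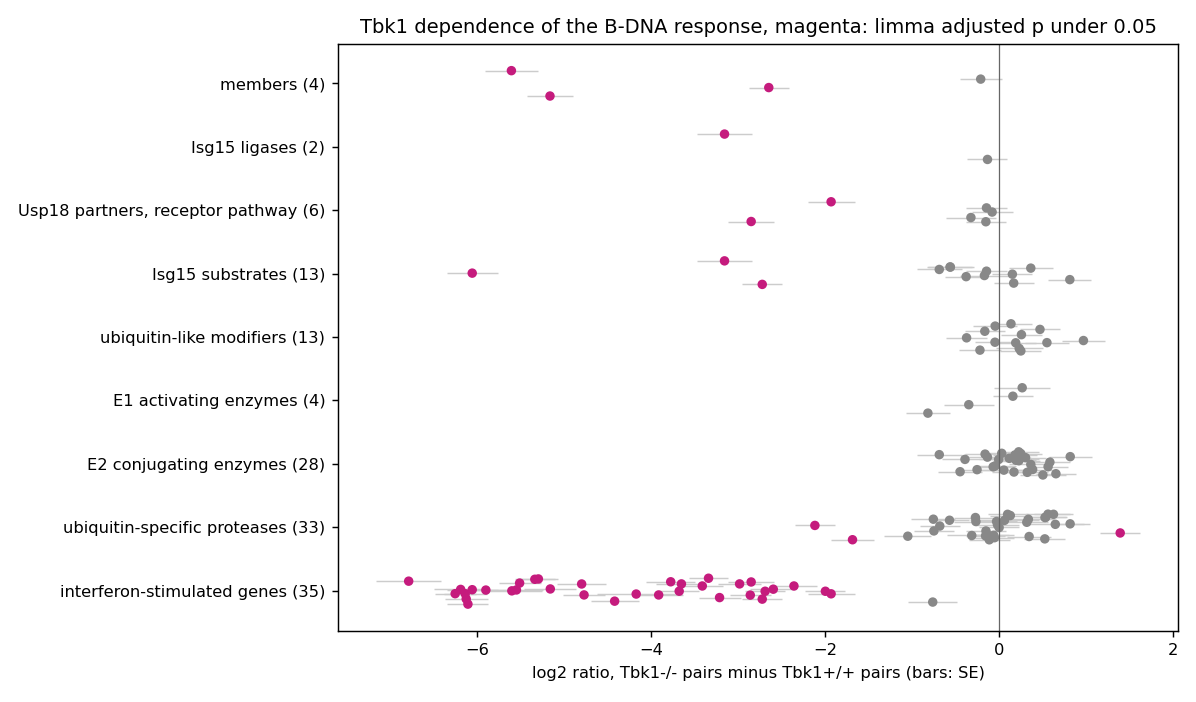
Difference in log2 ratio between Tbk1-/- and Tbk1+/+ pairs, with SE bars, for the members and for related gene lists (number measured in brackets, genes can be on more than 1 list). Magenta points passed limma at an adjusted p under 0.05: 3 of 4 members, 1 of 2 ligases, 2 of 6 receptor partners, 3 of 13 substrates, 3 of 33 other ubiquitin-specific proteases and 34 of 35 interferon-stimulated genes, and none of the E1, E2 or other modifier lists. Over all genes tested 2.11% passed. Members and lists were chosen with earlier results of these data known.

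The corresponding genes of other ubiquitin-like systems were read beside the members. None of 13 measured modifiers, among them Nedd8 and Sumo3, of 4 other E1 enzymes or subunits, or of 28 other E2 enzymes passed the test for Tbk1 in either direction (limma), against 2.11% of all genes. The median differences were 0.20, -0.09 and 0.19, close to the 0.05 of all genes tested. No gene of these 3 lists was counted as higher after B-DNA in any genotype (3.28% of all genes were in WT). The E2 enzyme Ube2g2 was counted as lower in WT (log2 ratio -1.01) and Ube2s as lower in Tbk1-/- cells (-1.01), where 1.89% and 0.405% of all genes were.

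Of 33 other ubiquitin-specific proteases that reached the floor, 2 had a lower and 1 a higher ratio in the Tbk1-/- pairs. Over all genes tested 1.87% had a lower and 0.239% a higher one. Usp25, which acts in antiviral signalling, went from 151 to 573 in WT. In Ikbke-/- cells it read 90.6, under the floor, and 331 after B-DNA, a log2 ratio of at least 1.44. It lay under the floor on all 4 Tbk1-/- arrays (difference -1.68, SE 0.248, limma adjusted p = 0.0273). Usp25 thus passed the filter on low values only through Tbk1+/+ arrays, where it is higher. Usp12 went from 212 to 760.1 in WT and from 320 to 774 in Ikbke-/- cells (difference -2.11, SE 0.230, limma adjusted p = 0.00811). Usp39, a splicing factor related to these proteases, differed the other way (1.397, SE 0.231, limma adjusted p = 0.0405), from 905 to 417 in WT cells, while its other probe set gave -0.11 there. The differences of these 3 genes were smaller in size than the -5.60 of Usp18.

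Of 18 listed proteins known to receive Isg15, 13 reached the floor, and 3 of these had a lower ratio in the Tbk1-/- pairs, where 1.87% of all genes did: Trim25, Ifih1 and Eif2ak2. Ifih1, a sensor of double-stranded RNA, had a difference of -6.05 (SE 0.295, limma adjusted p = 4.88e-04), and Eif2ak2, the kinase PKR that stops translation, had one of -2.72 (SE 0.229, limma adjusted p = 0.00307). All 3 are themselves turned on by interferon. The median difference over the 13 was -0.37, and the other 10 did not pass, with differences from -0.68 for Ube2e1 to 0.82 for Tsg101.

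For scale, 34 of 35 measured interferon-stimulated genes had a lower ratio in the Tbk1-/- pairs, where 1.87% of the 9627 genes tested did. The median difference over the 35 was -4.17. Rsad2 (-6.79), Ifit2 (-6.25), Oasl1 (-6.19) and Mx1 (-6.14) were among the 34, each with values under the floor. Their differences therefore have no order against those of Usp18 and Isg15/Gm9706. Some genes of the list, such as Mx1, were under the floor on all 4 Tbk1-/- arrays. They passed the filter on low values only through Tbk1+/+ arrays where they are high, and with no such filter no gene was called. This list holds Stat2, Irf9, Ifih1 and Eif2ak2 as well. It was chosen with earlier results of these data known, so its share is not an independent yardstick.

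Dependence on Ikbke came from the same limma fit, which called no gene (435 of 9627, or 4.52%, had an unadjusted p under 0.05). Usp18 had a mean log2 ratio of 3.05 in the Ikbke-/- pairs and 2.56 in the Ikbke+/+ pairs, a difference of 0.50 (SE 0.302, limma adjusted p = 0.98). Each mean includes a Tbk1-/- pair whose 0 is the floor's. In the Tbk1+/+ pairs alone the Usp18 log2 ratio was 0.99 higher in Ikbke-/- than in WT cells. A difference confined to those pairs also enlarges the residual, so this test could hardly call it. The differences were 0.11 for Isg15/Gm9706, -0.42 for Uba7 and 0.21 for Ube2l6, none past the test. After B-DNA the Ikbke-/- array read 1.48-fold the WT array for Usp18, 1.08-fold for Isg15/Gm9706 and 1.08-fold for Uba7, and without replicates the spread behind these ratios is unknown. On the mock arrays Ikbke-/- read 0.744 of WT for Usp18 and 0.798 for Isg15/Gm9706, so that the larger Usp18 ratio of Ikbke-/- cells came from both arrays. The average response over all 4 genotypes called no gene either (limma, 761 or 7.9% with an unadjusted p under 0.05), and its estimates were 2.80 for Usp18, 2.68 for Isg15/Gm9706 and 1.08 for Uba7 (limma adjusted p = 0.62, 0.62 and 0.65).

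No member passed a test between mock arrays. Isg15/Gm9706 read 304 in WT and 242 in Ikbke-/- cells and was under the floor in both Tbk1-/- genotypes, at least 2.49-fold lower than WT. Usp18 read 239.5 and 178 in the same cells and was under the floor in both Tbk1-/- genotypes, at least 1.96-fold lower than WT. In each case both Tbk1+/+ mock arrays lay above both Tbk1-/- ones. Over the 4 mock arrays limma gave a Tbk1 difference of -1.15 for Isg15/Gm9706 (SE 0.349, unadjusted p = 0.0176, adjusted p = 1) and of -0.76 for Usp18 (SE 0.354, adjusted p = 1), and called none of 9170 genes (209, or 2.28%, with an unadjusted p under 0.05). Ube2l6 was under the floor on all 4 and was not tested. In these bulk samples, fewer cells with the transcript and less of it per cell cannot be told apart.

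The cell type and the labels were checked on every array. All 11 fibroblast markers, such as Col1a1 and Vim, reached 244 on 6 of the 8 arrays and 10 of 11 on both Tbk1-/- arrays. Of 19 macrophage and leukocyte markers 15 reached 244 on the WT mock array and 12 on the WT B-DNA array, with summed signals of 22308 and 6335, against 1 or 2 of 19 and sums of 1541 to 1940.1 on the other 6. On the Ikbke-/- mock and B-DNA arrays the sums were 1541 and 1823, with 14 and 12 of the 19 markers under the floor. Among those not under it on both, Csf1r read 245 and 260, while Mpeg1 went from 17.9 to 233. The B-DNA ratios of Ikbke-/- cells were 44.5 for Isg15/Gm9706, 68.5 for Usp18 and 4.68 for Uba7. The part of these markers in the WT values was not tested. Tbk1 read 226 to 390 on the 4 Tbk1-/- arrays and 472 to 989 on the others, while that of Ikbke was under the floor on all 8 and checks nothing. The position of both probe sets relative to the deletions is not known here. Xist, the RNA of the inactive X chromosome, read 2950.1 to 3766 in Ikbke+/+ and 138 to 209 in Ikbke-/- genotypes, so embryo sex and Ikbke genotype cannot be told apart.

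**Figure D4:**
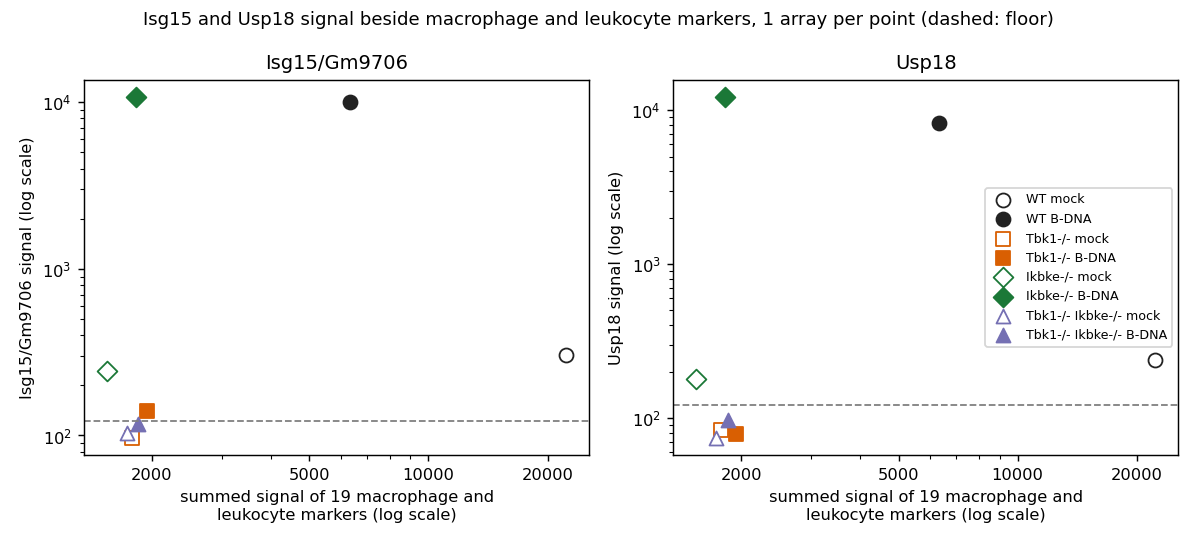
Signal of Isg15/Gm9706 (left) and Usp18 (right) against the summed signal of 19 macrophage and leukocyte markers, both on log axes, 1 array per point, open for mock and filled for B-DNA, with the floor dashed. The Ikbke-/- B-DNA array is the highest in both panels at a marker sum of 1823, and the WT mock array has the highest sum, 22308.

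The genes whose log2 signal followed the members most closely over the 8 arrays were listed by Pearson r among 4164 genes that varied 2-fold or more. For Usp18 they were Parp14 (r = 0.998), Parp9, Stard5 and Oas2 (r = 0.99 or more each). For Isg15/Gm9706 they were Stard5, Socs1, Ifit1 and Apod (r = 0.99 or more). For Uba7 they were Igtp, Tap2, Tap1 and Pnp (r = 0.99 each), of which Tap1 and Tap2 form the transporter that loads peptides on MHC class I. With 2 high arrays and 6 low ones, r is set by that split: 125 genes had r of 0.95 or more with Usp18, 119 with Isg15/Gm9706 and 105 with Uba7. The genes closest to Ube2l6, namely Sct, Runx3, Bex1 and Cacna1h, share with it that the Ikbke-/- B-DNA array alone or with 1 other was above the floor, and their r describes that array only.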

How the data were processed

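The deposited file holds 1 linear intensity for each probe set and array, the MAS5 signal per the submitters' processing notes, which the authors computed with Affymetrix Microarray Suite 5.0 according to the design text; GeneSpring is listed beside it without a purpose. The sources used here name no scaling target. The probe set names do not belong to the array type that the design text gives. Of 22690 probe sets, 64 controls were left out, and 20380 had 1 gene symbol, 691 several and 1555 none; symbols were updated through gene numbers to RefSeq GRCm38.p6 (20351 matched). Probe sets with several symbols were left out except that of Isg15/Gm9706. Deposited trimmed means of 140 to 255 were scaled to 500 (factors 1.96 to 3.58). The floor was the 40th percentile, 122, and each gene was represented by its probe set with the highest mean. Log2 values were fitted with limma 3.58.1 (R 4.3.3), genotype being a block, and the 2-sided p-values of eBayes were adjusted by Benjamini-Hochberg over 9627 genes at a threshold of 0.05. Both interactions, with Tbk1 and with Ikbke, came from 1 fit with 1 residual degree of freedom (prior 5.34), the average response from 3, and the mock fit from 1. Fits were tested on simulated data. The number of arrays limits the precision, and with 1 array per group no fit holds a spread between replicates. The residual of the interaction fit is what added Tbk1 and Ikbke effects leave unexplained in the 4 log2 ratios. That of the mock fit is the same for the 4 mock levels. That of the average response is how the ratios differ between genotypes. No source says whether the arrays stem from separate cultures. Named were the members, the ligases and receptor partners, up to 4 genes per other list past the Tbk1 test, and the 4 genes most like each member by Pearson r. Nedd8, Sumo3, Ube2g2, Ube2s, Ube2e1, Tsg101 and the marker genes other than Pdgfra are given as examples outside that rule. Members and lists were chosen with earlier results of these data known. Alternatives were other scalings, floors, filters, probe set rules and models, and leaving out pairs.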

Additional observations from a re-analysis of the deposited data

Results flagged for a closer look

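The difference of the B-DNA response between Tbk1-/- and Tbk1+/+ genotypes passed the interaction test for 3 members. It was -5.60 for Usp18, -5.16 for Isg15/Gm9706 and -2.64 for Uba7 on the log2 scale (limma adjusted p = 5.63e-04, 5.07e-04 and 0.00367), with a lower log2 ratio in both Tbk1-/- pairs than in both Tbk1+/+ pairs for each. Values under the floor entered all 3 differences, and both Usp18 ratios of the Tbk1-/- genotypes were 0 by the floor. Usp18 passed the filter on low values only through the Tbk1+/+ arrays where it is high. With no such filter none of the 3 passed (limma adjusted p = 0.258 to 0.307), and none did when any 1 pair was left out. Groups of 1 array do not allow a search for arrays that stand apart within a group.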

How the results depend on the processing

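For Isg15/Gm9706 and Usp18 the Tbk1 difference stayed negative and past the test in 8 of 9 alternatives that gave a value, other than leaving out a pair, and lay between -5.16 and -4.76 and between -5.60 and -5.29. The exception was no filter on low genes, which called 0 members (limma adjusted p = 0.285 for Isg15/Gm9706, 0.307 for Usp18 and 0.258 for Uba7, with the differences unchanged) and no gene at all. Leaving out 1 pair at a time gave 0 to 0 members called. Uba7 also lost its call with the median of its probe sets (-1.18, limma adjusted p = 0.0924), where its Ikbke-/- log2 ratio of 0.85 fell short of 2-fold. Requiring the floor on all arrays left no member to test. Ube2l6 was counted as higher in WT and Ikbke-/- cells with the 20th percentile floor only. The causes were not tested. No member changed the sign of a called value, and no member was called for Ikbke, on average or between mock arrays in any alternative. Over all genes, the 180 lower and 23 higher for Tbk1 became 103 lower without further scaling, 51 and 1 with the 20th percentile floor, 66 and 4 without a floor, 102 and 5 with the Tbk1 interaction only, 10 higher with a common median and 83 higher with the floor required on all arrays. Without further scaling, which moved the WT median by -0.30 and the Ikbke-/- one by -0.13, the WT counts became 179 higher and 729 lower (from 316 and 182), the lower counts 425 in Ikbke-/- (from 158) and 105 in Tbk1-/- (from 39), and those of Tbk1-/- Ikbke-/- 117 higher and 18 lower (from 52 and 72), with the same 3 members counted. With the 20th percentile floor, 769 were higher and 445 lower in WT, 616 and 363 in Ikbke-/-, 207 and 252 in Tbk1-/-, and 299 and 417 in Tbk1-/- Ikbke-/- cells. With the median of probe sets, 25 were lower in Tbk1-/- cells. Between mock arrays 6 were lower without a floor, and 7 lower and 1 higher with the floor on all arrays. The B-DNA fits were already paired by genotype. No paired analysis was possible by replicate number because each group has 1 array.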
